A study of Homo sapiens with 6 samples.

Results

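Integrins are cell surface receptors for the extracellular matrix, each built from an alpha and a beta subunit, and 10 genes of this family were followed here, with ITGA3 in the lead: ITGA2, ITGA3, ITGA5, ITGA6, ITGAV, ITGB1, ITGB3, ITGB4, ITGB5 and ITGB8. Every array probe designed to a RefSeq transcript of a member gene was taken, which gave 11 probes for the 10 genes, among 21743 genes with a probe on the array. The cells were MDA-MB-231, a human breast cancer line of mesenchymal-like appearance. They were transfected at 30 nM with the precursor of hsa-miR-205-5p, the precursor of hsa-miR-214-3p or a scrambled negative control precursor, and RNA was taken 72 h later. Each of the 3 groups had 2 samples, and each was hybridized in 1 colour to an Agilent SurePrint G3 Human GE array of its own, with all 6 on 1 slide. The groups answer which integrin transcripts differ after each precursor, relative to the control and to the other precursor. All samples are of 1 cell line. The labels do not say whether the replicates came from separate cultures, and the methods speak of independent experiments only in general and not for these arrays, so the p-values measure only the spread between these samples, which may be technical. The levels of the mature miRNAs after transfection were not analysed here.

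The alpha subunit largely sets what an integrin binds, and the beta subunit links it to the actin cytoskeleton or, in the case of ITGB4, to keratin filaments in hemidesmosomes. ITGA3 and ITGA6 make laminin receptors, ITGA5 makes the main fibronectin receptor, ITGA2 a collagen receptor, and ITGAV pairs with several beta subunits to bind vitronectin, fibronectin and latent TGF-beta. ITGB1 is the common partner of ITGA2, ITGA3, ITGA5 and ITGA6. Integrins carry adhesion, migration and survival signals in breast epithelium and in breast cancer cells.

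The miRNAs themselves are shown because the groups differ in their seeds, the bases with which a miRNA pairs with target transcripts. RefSeq places the mature hsa-miR-205-5p at chr1:209432166-209432187 on the plus strand and the mature hsa-miR-214-3p at chr1:172138816-172138837 on the minus strand of GRCh38.p14. The capitals mark the seed, bases 2 to 8 from the 5′ end.
hsa-miR-205-5p: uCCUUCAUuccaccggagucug
hsa-miR-214-3p: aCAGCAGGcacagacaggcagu
The seeds differ, and in the RefSeq table no other mature human miRNA had the seed of hsa-miR-205-5p, whereas hsa-miR-3619-5p and hsa-miR-761 had that of hsa-miR-214-3p. Sites for these seeds in the integrin transcripts were not searched, since no transcript sequences were used.

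A level is given throughout as the normalized log2 signal, the log2 of the processed signal minus the 75th percentile of its array, so that 0 stands for the 75th percentile and a difference of 1 for a 2-fold difference in signal. Levels of different probes are not comparable with each other and are compared only between arrays. A probe was tested when any group had it well above background on both of its arrays, which held for 9 probes of 8 member genes and for 18468 of the 50599 probes on the array. A probe was called lower or higher at a Benjamini-Hochberg adjusted p under 0.05 over all 18468 tested probes (limma) and a difference of at least 2-fold. Between 35.4% and 42.2% of the 58717 spots per array were well above background and 0 were saturated. Over the tested probes, the replicates differed by a root mean square of 0.51 with hsa-miR-205-5p, 0.34 with hsa-miR-214-3p and 0.67 in the scrambled control. The number of arrays limits the precision.

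With hsa-miR-205-5p, ITGA3 and ITGA5 were lower than in the scrambled control and ITGA6 was higher by its brighter probe, by 2.88-fold to 3.54-fold in signal. The other 6 tested probes passed no call in this comparison. With hsa-miR-214-3p, no integrin probe was called. Between both precursors, ITGA3, ITGA5 and ITGB5 were lower with hsa-miR-205-5p and ITGA6 was higher by its brighter probe, while its dimmer probe was not called. Both comparisons with the control share its 2 arrays.

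**Figure D1:**
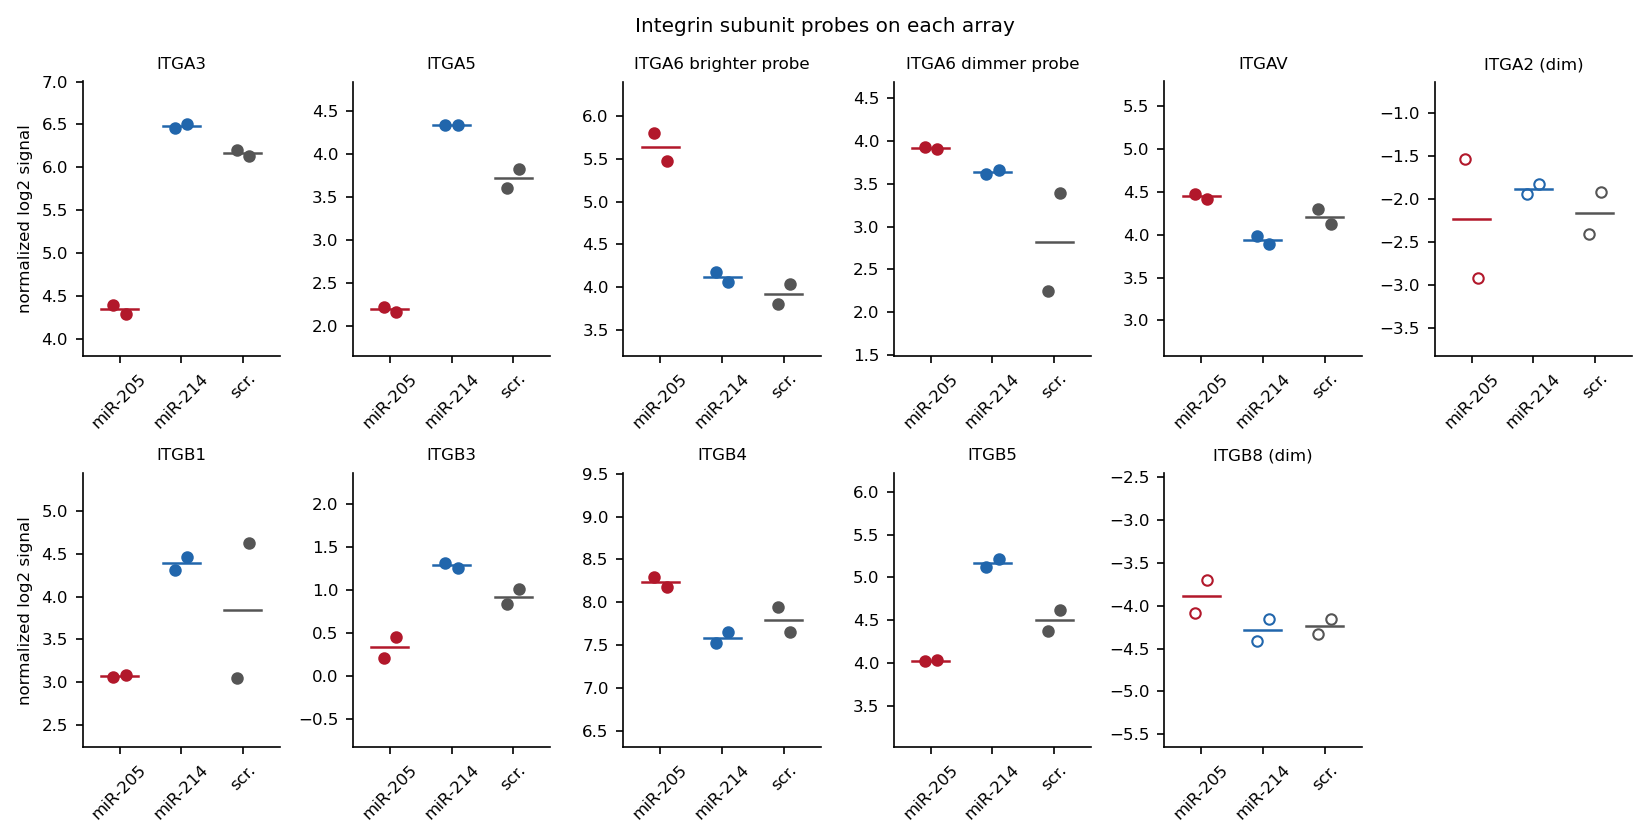
Normalized log2 signal (vertical axis, log2 units, each panel with its own range of equal height) of the 11 integrin probes on each of the 6 arrays. A point is 1 array, a line is the mean of the 2 arrays of a group, and open points mark ITGA2 and ITGB8, which did not pass the filter on dim probes. ITGA3 lay at 4.39 and 4.30 with hsa-miR-205-5p and between 6.13 and 6.51 on the other 4 arrays, and the ITGB1 control arrays lay 1.57 apart.

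ITGA3 pairs with ITGB1 into a laminin receptor of basal epithelium. Its probe, for transcript NM_002204, had a normalized log2 signal of 4.39 and 4.30 on the hsa-miR-205-5p arrays, 6.45 and 6.51 on the hsa-miR-214-3p arrays, and 6.21 and 6.13 on the control arrays. Both hsa-miR-205-5p arrays were below the other 4 arrays, and the replicates of a group differed by at most 0.10. ITGA3 fell by 1.82 on the log2 scale with hsa-miR-205-5p relative to the control, a 3.54-fold lower signal (standard error, SE, 0.15, 95% interval -2.20 to -1.44, limma adjusted p = 0.0080). By p-value it ranked 78 among the 18468 tested probes. With hsa-miR-214-3p, ITGA3 differed from the control by 0.31 (95% interval -0.07 to 0.69, limma adjusted p = 0.291). The direct comparison of both precursors gave a log2 fold change of -2.14, a 4.39-fold lower signal with hsa-miR-205-5p (SE 0.15, limma adjusted p = 0.00383). ITGA3 is among the genes that the study discussed as targets of hsa-miR-205-5p. The study took as targets the genes that fell on these same arrays and that TargetScan predicted. The fall of ITGA3 here is therefore not independent evidence of that direction.

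ITGA5 pairs with ITGB1 into the receptor through which cells bind and assemble fibronectin. Its probe, for NM_002205, had normalized log2 signals of 2.23 and 2.16 with hsa-miR-205-5p, 4.34 and 4.34 with hsa-miR-214-3p, and 3.61 and 3.83 in the control. The 3 groups did not overlap, with hsa-miR-205-5p lowest and hsa-miR-214-3p highest. ITGA5 fell by 1.53 on the log2 scale with hsa-miR-205-5p, a 2.88-fold lower signal than in the control (SE 0.16, 95% interval -1.93 to -1.13, limma adjusted p = 0.00865). With hsa-miR-214-3p it differed from the control by 0.62 (95% interval 0.22 to 1.02), which did not pass the adjustment (limma adjusted p = 0.108). Between both precursors the log2 fold change was -2.15, a 4.43-fold lower signal with hsa-miR-205-5p (SE 0.16, limma adjusted p = 0.00383).

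ITGA6 makes laminin receptors with ITGB1 or ITGB4, the latter in hemidesmosomes. The array holds 2 probes for it, both for NM_000210. The brighter probe had normalized log2 signals of 5.80 and 5.47 with hsa-miR-205-5p, 4.18 and 4.06 with hsa-miR-214-3p, and 3.80 and 4.04 in the control. Both hsa-miR-205-5p arrays were above the other 4 arrays. By this probe, ITGA6 rose by a log2 fold change of 1.71 relative to the control, a 3.28-fold higher signal (SE 0.19, 95% interval 1.23 to 2.20, limma adjusted p = 0.00914), and by 1.52 relative to hsa-miR-214-3p (SE 0.19, limma adjusted p = 0.00623). The second, dimmer probe of ITGA6 had normalized log2 signals of 3.93 and 3.90 with hsa-miR-205-5p, 3.61 and 3.66 with hsa-miR-214-3p, and 2.25 and 3.39 in the control. Its control arrays lay 1.13 apart, and both were below the other 4 arrays. With hsa-miR-205-5p this probe gave a log2 fold change of 1.10, which did not pass the adjustment (95% interval 0.16 to 2.03, limma adjusted p = 0.0955), and of 0.28 between both precursors (adjusted p = 0.580). Without control replicate 2 the dimmer probe was called higher with either precursor, at 1.66 for hsa-miR-205-5p (limma adjusted p = 0.0186) and 1.38 for hsa-miR-214-3p (limma adjusted p = 0.0233). Without control replicate 1 these values were 0.53 and 0.25, and under normexp background correction 0.51 and 0.42, with no call. On all arrays, hsa-miR-214-3p gave log2 fold changes against the control of 0.20 for the brighter and 0.81 for the dimmer probe (adjusted p = 0.585 and 0.270). The probes of ITGA6 therefore share the direction relative to the control but not the call, and they differ in size between both precursors.

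The calls of ITGA3, ITGA5 and ITGA6 against the control held without hsa-miR-205-5p replicate 1 (adjusted p-values of 0.0384, 0.0396 and 0.0410 from limma) and were lost without hsa-miR-205-5p replicate 2. Without replicate 2 the log2 fold changes were -1.77 for ITGA3, -1.49 for ITGA5 and 1.88 for ITGA6, with adjusted p-values of 0.0559, 0.0588 and 0.0559 from limma. In that fit 0 of the 18468 probes were called against the control, whereas these 3 probes had an unadjusted p under 0.05. The methods' t-test with Benjamini-Hochberg adjustment also ended the 3 calls (adjusted p = 0.128, 0.153 and 0.173 for ITGA3, ITGA5 and ITGA6). It called 0 of all probes tested in this comparison. Without the adjustment, at p under 0.05 and 2-fold, the same t-test kept the 3 calls against the control. The ITGA6 call between both precursors was lost without hsa-miR-214-3p replicate 1 (log2 fold change 1.58) and without hsa-miR-214-3p replicate 2 (1.46). It was also lost by the methods' t-test with adjustment (adjusted p = 0.0535) and kept by that t-test without adjustment. ITGA3 and ITGA5 kept their calls between both precursors in each fit that left out 1 array and by that t-test, adjusted or not.

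ITGAV is the alpha subunit of the vitronectin receptors. Its probe, for NM_002210, was printed at 10 places on each array. The normalized log2 signal was 4.48 and 4.42 with hsa-miR-205-5p, 3.98 and 3.89 with hsa-miR-214-3p, and 4.30 and 4.12 in the control. The 3 groups did not overlap, but they lay close together. The log2 fold change was 0.24 with hsa-miR-205-5p (95% interval -0.16 to 0.64, limma adjusted p = 0.315), and its sign turned to -0.026 under normexp background correction and to -0.15 when arrays were scaled to their medians. It was -0.27 with hsa-miR-214-3p (95% interval -0.67 to 0.13, adjusted p = 0.370) and 0.51 between both precursors (95% interval 0.11 to 0.91, adjusted p = 0.0590). ITGA2, the alpha subunit of a collagen receptor, was well above background on 1 of 6 arrays (scrambled control replicate 2), with normalized log2 signals from -2.92 to -1.54, and no fold change is given for its probe, for NM_002203.

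ITGB1 is the beta subunit that ITGA3 and ITGA5 need to reach the surface. Its probe, for NM_133376, was printed at 10 places on each array, of which 7 to 10 were free of outlier marks. The normalized log2 signal was 3.06 and 3.08 with hsa-miR-205-5p, 4.31 and 4.47 with hsa-miR-214-3p, and 3.06 and 4.63 in the control. One control array was thus level with both hsa-miR-205-5p arrays, the other above the hsa-miR-214-3p arrays. Within an array the spots agreed closely, with an SD over spots between 0.05 and 0.12 over the 6 arrays. The spots of control replicate 1 ran from 2.94 to 3.24 and those of control replicate 2 from 4.44 to 4.74, without overlap. The gap between the control arrays was therefore present at every spot of the probe that was free of outlier marks. The cause of this gap was not tested.

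**Figure D2:**
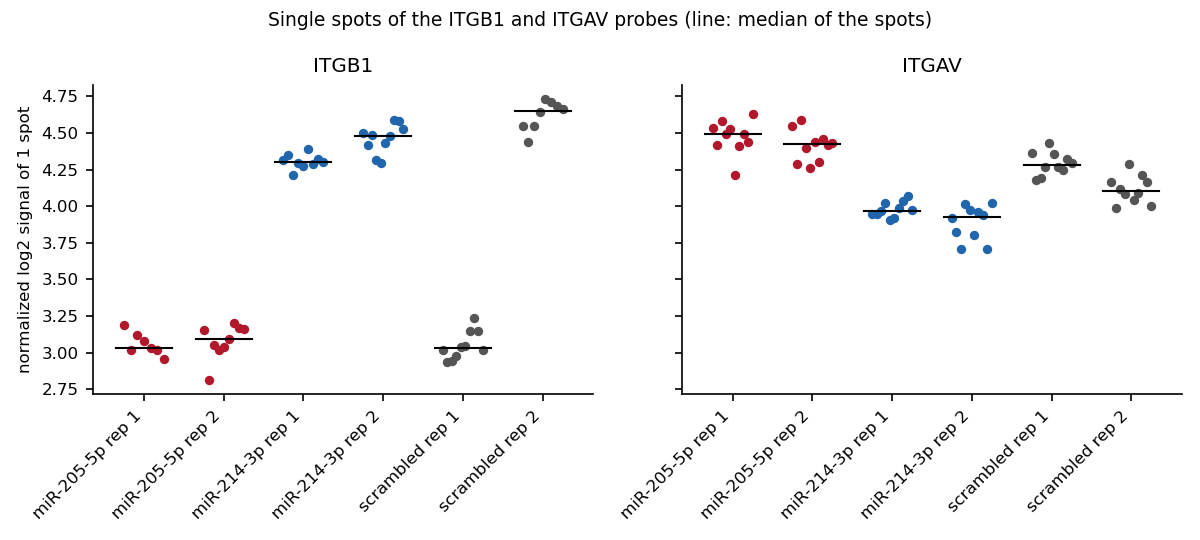
Normalized log2 signal (vertical axis, log2 units) of the single spots of the ITGB1 probe (left) and of the ITGAV probe (right) on each of the 6 arrays. A point is 1 spot without an outlier mark and a line is the median of the spots. The ITGB1 medians were 3.03 on control replicate 1 and 4.65 on control replicate 2, while the ITGAV medians of these arrays were 4.28 and 4.10.

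Against the control, ITGB1 lay at a log2 fold change of -0.77 after hsa-miR-205-5p (SE 0.50, 95% interval -2.02 to 0.48, limma adjusted p = 0.308) and of 0.55 after hsa-miR-214-3p (SE 0.50, 95% interval -0.70 to 1.79, adjusted p = 0.560), and in both comparisons the arrays overlapped. Without control replicate 1, ITGB1 with hsa-miR-205-5p was called lower (log2 fold change -1.55, limma adjusted p = 0.00840) and lay at -0.24 with hsa-miR-214-3p (adjusted p = 0.337). Without control replicate 2, it lay at 0.016 with hsa-miR-205-5p (adjusted p = 0.945) and was called higher with hsa-miR-214-3p (log2 fold change 1.33, adjusted p = 0.0246). These arrays therefore give no direction for ITGB1 against the control. Between both precursors the arrays did not overlap, and the log2 fold change was -1.31 (95% interval -2.56 to -0.06, limma adjusted p = 0.0968). With the spread taken from only the 4 arrays of this comparison, the same difference was called, with an adjusted p of 0.00478.

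ITGB5 and ITGB3 pair with ITGAV into vitronectin receptors. The ITGB5 probe, for NM_002213, had normalized log2 signals of 4.02 and 4.04 with hsa-miR-205-5p, 5.12 and 5.21 with hsa-miR-214-3p, and 4.38 and 4.62 in the control. The 3 groups did not overlap and stood in the order seen for ITGA5. ITGB5 was called lower in the hsa-miR-205-5p than in the hsa-miR-214-3p group, by a log2 fold change of -1.14 and a 2.20-fold lower signal (SE 0.17, 95% interval -1.55 to -0.73, limma adjusted p = 0.00845). That call was lost without hsa-miR-214-3p replicate 1 (adjusted p = 0.0686), without hsa-miR-214-3p replicate 2 (adjusted p = 0.0844) and with no filter on dim probes (adjusted p = 0.0523). Against the control, the log2 fold changes of ITGB5 were -0.47 with hsa-miR-205-5p (95% interval -0.88 to -0.06, adjusted p = 0.103) and 0.67 with hsa-miR-214-3p (95% interval 0.26 to 1.08, adjusted p = 0.0985).

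The ITGB3 probe, for NM_000212, had normalized log2 signals of 0.21 and 0.46 with hsa-miR-205-5p, 1.32 and 1.25 with hsa-miR-214-3p, and 0.83 and 1.01 in the control. Its groups also stood in the order of ITGA5 without overlap. Between both precursors its log2 fold change was -0.96 (SE 0.17, limma adjusted p = 0.0144), which passed the adjustment and fell short of 2-fold. With the arrays scaled to their medians, or without hsa-miR-205-5p replicate 2, it reached 2-fold, with log2 fold changes of -1.18 and -1.08. Under normexp background correction it was -0.58, and the adjustment was not passed with no filter on dim probes (adjusted p = 0.0812), without hsa-miR-205-5p replicate 1 (0.0732), without hsa-miR-214-3p replicate 1 (0.109) or replicate 2 (0.104), or by the methods' t-test (0.0623). Against the control it was -0.59 with hsa-miR-205-5p (95% interval -1.03 to -0.16, adjusted p = 0.0691), and with hsa-miR-214-3p it was 0.36 (adjusted p = 0.286).

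ITGB4 is the hemidesmosomal beta subunit and pairs with ITGA6. Its probe, for NM_000213, had normalized log2 signals of 8.29 and 8.18 with hsa-miR-205-5p, 7.52 and 7.66 with hsa-miR-214-3p, and 7.95 and 7.65 in the control. The hsa-miR-205-5p arrays were highest, and the control arrays reached down to those of hsa-miR-214-3p. Between both precursors the log2 fold change was 0.65, which passed the adjustment and fell short of 2-fold (SE 0.18, limma adjusted p = 0.0444). It did not pass under quantile normalization (0.40, adjusted p = 0.0888), in the authors' log2 values (0.40, adjusted p = 0.0902) or under median scaling (0.42, adjusted p = 0.185), nor with the replicate block (adjusted p = 0.0708), with no filter on dim probes (0.186), by the methods' t-test (0.0648) or without any single one of the 4 precursor arrays (0.121 to 0.233). It was 0.44 with hsa-miR-205-5p (95% interval -0.01 to 0.89, adjusted p = 0.142) against the control, and with hsa-miR-214-3p it was -0.21 (adjusted p = 0.536). ITGB8, which pairs with ITGAV and activates latent TGF-beta, was well above background on 0 of 6 arrays, with normalized log2 signals from -4.41 to -3.70 for NM_002214, and no fold change is given.

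Counted over the family, 2 of the 9 tested probes were called lower with hsa-miR-205-5p than in the control and 1 was called higher. Over all 18468 tested probes, 8.05% were called lower and 4.14% higher in that comparison. The arrays of both groups did not overlap for 8 of the 9 integrin probes, against 62.3% of all tested probes. The median log2 fold change of the integrin probes was -0.47 and that of all tested probes 0.05. With hsa-miR-214-3p, 0 of the 9 probes were called by limma, where 1.68% of all tested probes were called lower and 0.991% higher. ITGA5 and ITGB5 had an unadjusted p under 0.05 in that comparison, as had 22.6% of all tested probes, and the methods' t-test called 0 integrin probes, with or without adjustment. Its arrays did not overlap for 7 of 9 probes, against 55.3% of all tested probes, and the median log2 fold change was 0.36, against -0.01 over all tested probes. Between both precursors, 3 of 9 probes were called lower with hsa-miR-205-5p and 1 higher, against 11.5% and 8.37% of all tested probes, and the arrays did not overlap for 9 of 9, against 78.3%. With 9 probes, these shares describe the family and are not a test of it.

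**Figure D3:**
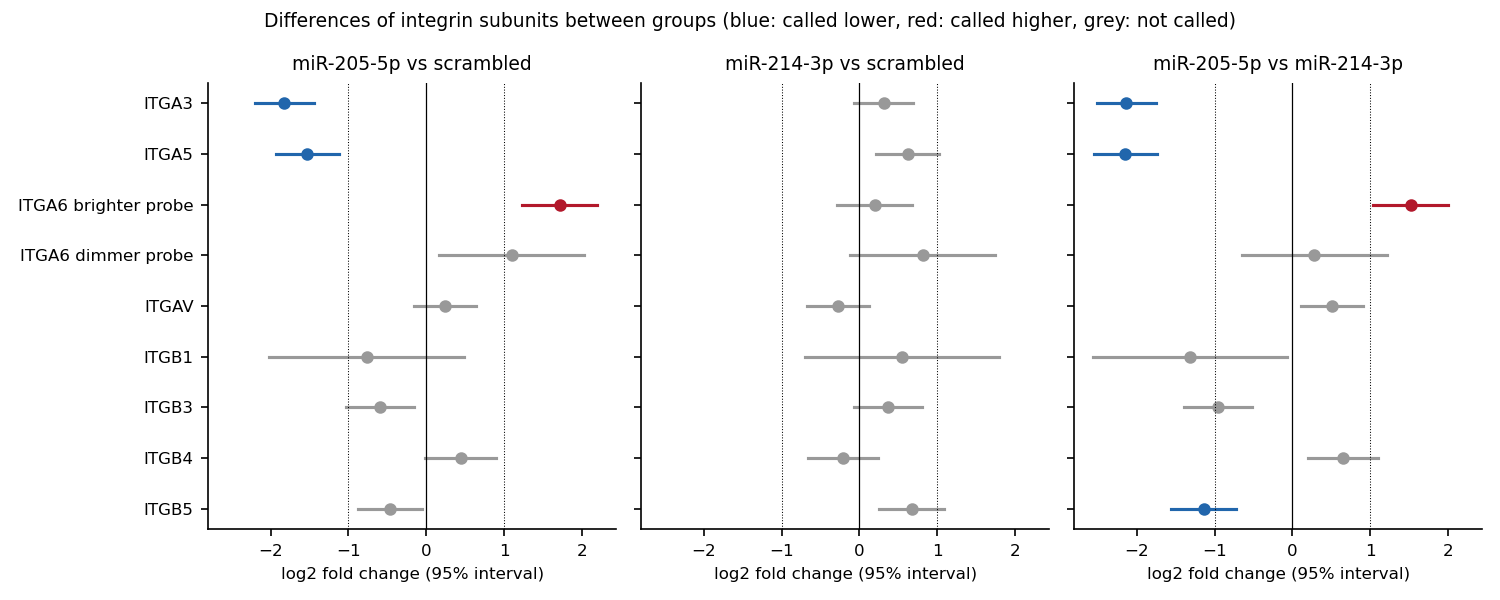
Log2 fold change (horizontal axis) of the 9 tested integrin probes in the 3 comparisons, with the 95% interval from limma as a bar. Blue points were called lower, red points higher and grey points were not called, and dotted lines mark a 2-fold difference. ITGA3 and ITGA5 lay at -1.82 and -1.53 with hsa-miR-205-5p and at 0.31 and 0.62 with hsa-miR-214-3p, and the ITGB1 intervals were the widest of each panel.

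Set against ITGA3 over the 6 arrays, the normalized log2 signal had a Pearson r of 0.985 for ITGA5, 0.934 for ITGB3, 0.868 for ITGB5 and 0.717 for ITGB1. It was -0.958 for the brighter and -0.499 for the dimmer ITGA6 probe, -0.908 for ITGB4 and -0.870 for ITGAV. The subunits thus fell on both sides, with ITGA6 and its partner ITGB4 running against ITGA3. These values describe 6 points that fall into 3 groups and share their arrays, and they carry no p-value. Among 3156 genes whose probe was well above background on all 6 arrays and whose group means spanned at least a 2-fold range, the 5 with the pattern most like that of ITGA3 were FAM136A, INPPL1, PSMC3, STUB1 and USP5, with Pearson r from 0.998 to 0.999 over the 6 arrays. Their log2 fold changes with hsa-miR-205-5p against the control were -1.16 for FAM136A, -1.36 for INPPL1, -1.67 for PSMC3, -0.91 for STUB1 and -1.38 for USP5.

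The RefSeq promoter table held 12 windows of 300 bases around a start site for 7 of the 10 genes: ITGA2, ITGA5, ITGA6, ITGAV, ITGB1, ITGB5 and ITGB8. Among the called genes, ITGA5 and ITGA6 moved in opposite directions, and a promoter window of each is printed for that reason, in GRCh38.p14. Capitals mark each match to CACGTG (the E-box bound by MYC), to CACCTG or its reverse complement (the E-box bound by ZEB1 and the SNAI factors) and to GGGCGG or its reverse complement (the Sp1 box), searched on both strands. These motifs do not overlap each other. The ITGA5 window is chr12:54419217-54419516 on the minus strand and the ITGA6 window, the more upstream of its 2 windows, is chr2:172427086-172427385 on the plus strand.
ITGA5: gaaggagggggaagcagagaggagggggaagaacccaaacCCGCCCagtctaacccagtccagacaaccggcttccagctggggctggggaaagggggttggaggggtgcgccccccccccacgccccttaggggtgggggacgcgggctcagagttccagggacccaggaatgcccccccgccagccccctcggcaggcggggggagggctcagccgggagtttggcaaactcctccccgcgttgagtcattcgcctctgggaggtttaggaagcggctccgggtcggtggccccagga
ITGA6: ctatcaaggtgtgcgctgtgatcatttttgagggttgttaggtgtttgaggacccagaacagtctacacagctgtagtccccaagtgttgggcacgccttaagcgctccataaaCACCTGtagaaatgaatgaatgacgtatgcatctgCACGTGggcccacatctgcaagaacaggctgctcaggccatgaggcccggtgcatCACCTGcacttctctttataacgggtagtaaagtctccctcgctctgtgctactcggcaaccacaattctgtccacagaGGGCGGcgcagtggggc
The ITGA5 window held 1 Sp1 box and 0 matches to either E-box. The printed ITGA6 window held 1 CACGTG, 2 CACCTG and 1 Sp1 box, and the other ITGA6 window, chr2:172427336-172427635, held 0 CACGTG, 0 CACCTG and 3 Sp1 boxes. Over the 35116 windows of the table, 7.26% held CACGTG, 20.6% held CACCTG and 45% held the Sp1 box. Over the 12 integrin windows, 1 held CACGTG, 2 held CACCTG, in ITGA6 and ITGB5, and 9 held the Sp1 box. A match is a run of letters and says nothing of binding in these cells.

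Genes that work with integrins were read from 5 lists, each gene by its brightest probe. Of 104 listed genes 80 were tested, and with hsa-miR-205-5p 7 of these were called lower and 7 higher, against 7.98% and 4.78% of all 11974 genes tested. Their median log2 fold change was 0.04, and that of all genes 0.08. With hsa-miR-214-3p 0 were called lower and 2 higher (limma), against 2.03% and 1.09% of all genes, and 24 of 80 (of all genes, 24.2%) had an unadjusted p under 0.05. Without hsa-miR-205-5p replicate 2, 0 of the 14 calls of hsa-miR-205-5p were left, and 6 were counted without hsa-miR-214-3p replicate 1 and likewise without its replicate 2, and 9 without hsa-miR-205-5p replicate 1. The calls of hsa-miR-214-3p also changed with the array left out. Calls over all tested probes changed in the same fits, so these moves are not particular to the partner genes.

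Among 16 other integrin subunits, 6 were tested and 0 were called with either precursor against the control, with 2 at an unadjusted p under 0.05 in each comparison, where 39.5% of all genes with hsa-miR-205-5p and 24.2% with hsa-miR-214-3p were under it. ITGA1, a collagen-binding subunit, reached 0.90 (log2 fold change) with hsa-miR-205-5p, which passed the adjustment and fell short of 2-fold (limma adjusted p = 0.0202), -0.79 with hsa-miR-214-3p (adjusted p = 0.0656) and 1.69 between both precursors, where it was called higher (adjusted p = 0.00401).

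Of 20 tested ligands, 1 was called lower and 4 higher with hsa-miR-205-5p, against 7.98% and 4.78% of all genes tested. MFGE8, a secreted protein that binds integrins made with ITGAV, had normalized log2 signals of 1.96 and 1.69 with hsa-miR-205-5p, 4.11 and 4.30 with hsa-miR-214-3p, and 3.36 and 3.46 in the control. Its groups stood apart in the order of ITGA5, and it fell by 1.59 on the log2 scale with hsa-miR-205-5p (SE 0.18, limma adjusted p = 0.00914). CCN2, a matricellular protein also known as CTGF, rose by a log2 fold change of 1.49 (adjusted p = 0.0125), and COL4A5, a chain of basement membrane collagen, by 1.33 (adjusted p = 0.0318). The laminin chain LAMA4, chosen after its values were seen, was called higher with a log2 fold change of 1.19, and its other tested probe gave 0.61. The laminin chains LAMA3 and LAMB3 had log2 fold changes of 0.06 and 0.89 and passed no call, and the other LAMA3 probe gave 1.18. With hsa-miR-214-3p, COL5A1, a fibrillar collagen chain, was called higher (log2 fold change 1.49, SE 0.21, limma adjusted p = 0.0370), and its other probe gave 0.69.

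All 14 lateral membrane partners were tested. These are membrane proteins such as tetraspanins that bind integrins from the side. With hsa-miR-205-5p their median log2 fold change was -0.63, against 0.08 over all genes, and 12 of 14 values were below 0. Of the 14, 2 genes were called lower, against 7.98% of all genes tested. SDC4, a syndecan that acts with the fibronectin receptor in focal adhesions, had normalized log2 signals of 4.44 and 4.48 with hsa-miR-205-5p, 5.30 and 5.38 with hsa-miR-214-3p, and 6.03 and 6.02 in the control. It was lowest with hsa-miR-205-5p, with a fall by 1.56 on the log2 scale (SE 0.15, limma adjusted p = 0.0080). CD9, a tetraspanin that associates with ITGA3 and ITGB1, fell by 1.16 on the log2 scale (SE 0.26, adjusted p = 0.0360). CD151, the tetraspanin that binds ITGA3 most tightly, had normalized log2 signals of 10.21 and 9.38 with hsa-miR-205-5p, 7.94 and 7.80 with hsa-miR-214-3p, and 9.82 and 8.81 in the control. It was lowest with hsa-miR-214-3p, where its log2 fold change of -1.45 against the control did not pass the adjustment (SE 0.42, adjusted p = 0.132), and the control arrays lay over 2-fold apart. Between both precursors CD151 was called higher with hsa-miR-205-5p, with a log2 fold change of 1.93 (SE 0.42, limma adjusted p = 0.0239).

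**Figure D4:**
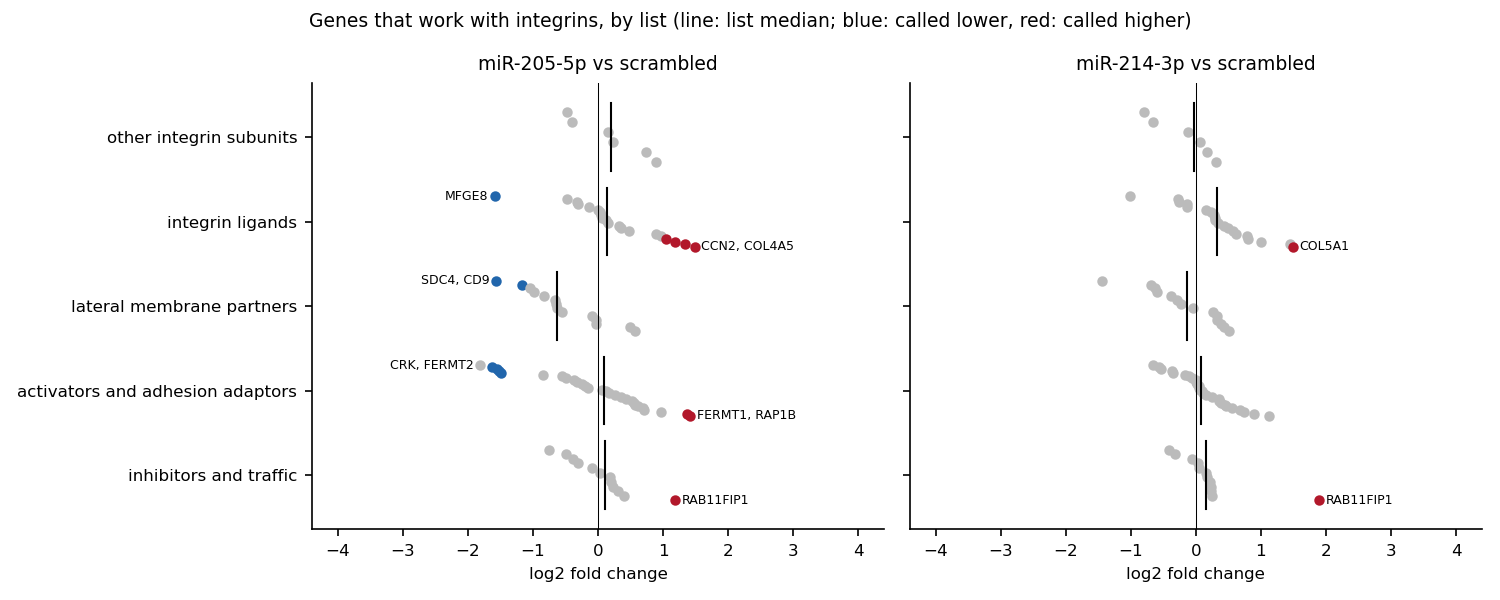
Log2 fold change against the scrambled control (horizontal axis) with hsa-miR-205-5p (left) and hsa-miR-214-3p (right) of the 80 tested genes that work with integrins, by list. A point is 1 gene, a black line is the median of its list, blue and red points were called lower and higher, grey points were not called, and at most 2 called genes per direction of a list are named. With hsa-miR-205-5p the median of the lateral membrane partners was -0.63, and the medians of the other 4 lists lay between 0.10 and 0.19.

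Of 28 tested activators and adhesion adaptors, 4 were called lower and 2 higher with hsa-miR-205-5p, against 7.98% and 4.78% of all genes tested. The kindlins bind the tails of beta subunits and help talin to activate integrins, and 2 of them went opposite ways. FERMT1, the epithelial kindlin, had normalized log2 signals of 5.48 and 5.51 with hsa-miR-205-5p, 3.48 and 3.55 with hsa-miR-214-3p, and 4.10 and 4.06 in the control, and it rose by a log2 fold change of 1.42 (SE 0.15, limma adjusted p = 0.00855). FERMT2, the kindlin of most other cells, had 1.15 and 0.72, 2.76 and 2.31, and 2.31 and 2.65 in the same order, and it fell by 1.55 on the log2 scale (SE 0.26, adjusted p = 0.0181). The hsa-miR-205-5p arrays of FERMT1 were above, and those of FERMT2 below, the other 4 arrays. CRK, an adaptor downstream of focal adhesion kinase, fell by 1.63 on the log2 scale (adjusted p = 0.0136), and the small GTPase RAP1B, which recruits talin, rose by 1.37 (adjusted p = 0.0221). ILK, a pseudokinase that binds kindlins, and the tensin TNS2, both chosen after their values were seen, fell by 1.53 and 1.49 on the log2 scale. TLN1, talin itself, lay at -0.25 (adjusted p = 0.668) and PTK2, focal adhesion kinase, at 0.71 (adjusted p = 0.347), both as log2 fold changes. With hsa-miR-214-3p, 0 of these 28 genes were called (limma), and 7 had an unadjusted p under 0.05, as had 24.2% of all genes tested.

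Of 12 tested genes that hold integrins inactive or move them through endosomes, RAB11FIP1, an effector of integrin recycling, was the only one called, and with both precursors. Of all genes tested, 4.78% were called higher with hsa-miR-205-5p and 1.09% with hsa-miR-214-3p. Its normalized log2 signals were 2.23 and 2.24 with hsa-miR-205-5p, 2.97 and 2.91 with hsa-miR-214-3p, and 1.10 and 0.99 in the control, so that the control arrays were lowest. The log2 fold change was 1.19 with hsa-miR-205-5p (SE 0.15, limma adjusted p = 0.0108) and 1.89 with hsa-miR-214-3p (SE 0.15, adjusted p = 0.0251). Its other tested probe gave 0.38 and 1.86.

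Markers of the cell line and of other cells were read beside the integrins. All 6 genes known to be high in MDA-MB-231 were well above background on every array, and 0 of 6 were called with either precursor. S100A4, a calcium-binding protein, fell by 0.90 on the log2 scale with hsa-miR-205-5p, which passed the adjustment and fell short of 2-fold (SE 0.19, limma adjusted p = 0.0298). The summed signal of the 6 genes, in multiples of the 75th percentile, was 1619 to 1658 with hsa-miR-205-5p, 1974 to 2081 with hsa-miR-214-3p and 1719 to 1890 in the control. Of 7 luminal epithelial genes 4 were tested, and EPCAM, CDH1 and KRT19 were called higher with hsa-miR-205-5p, with log2 fold changes of 2.40, 1.96 and 1.18, while GATA3 was at 0.31. In the control, the normalized log2 signal of EPCAM was 0.35 and 0.83, that of CDH1 -1.09 and -1.33 and that of KRT19 9.67 and 9.26. The summed signal of the list was 1499 to 1734 with hsa-miR-205-5p, 671 to 727 with hsa-miR-214-3p and 616 to 820 in the control. Nearly all of this sum was the single KRT19 probe, so it says little of the other genes. ESR1, PGR and FOXA1 did not pass the filter on dim probes. CDH1 and EPCAM, the epithelial cadherin and an epithelial adhesion molecule, moved in the direction of ITGA6 and FERMT1. Of 7 leukocyte and fibroblast genes, CD14 alone was tested and was called higher with hsa-miR-205-5p (log2 fold change 1.14), and the summed signal was 5.04 to 5.67, 3.26 to 4.17 and 2.32 to 2.95 in the 3 groups. These markers moved in the same arrays as the integrins, and their part in the integrin results was not tested.

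**Figure D5:**
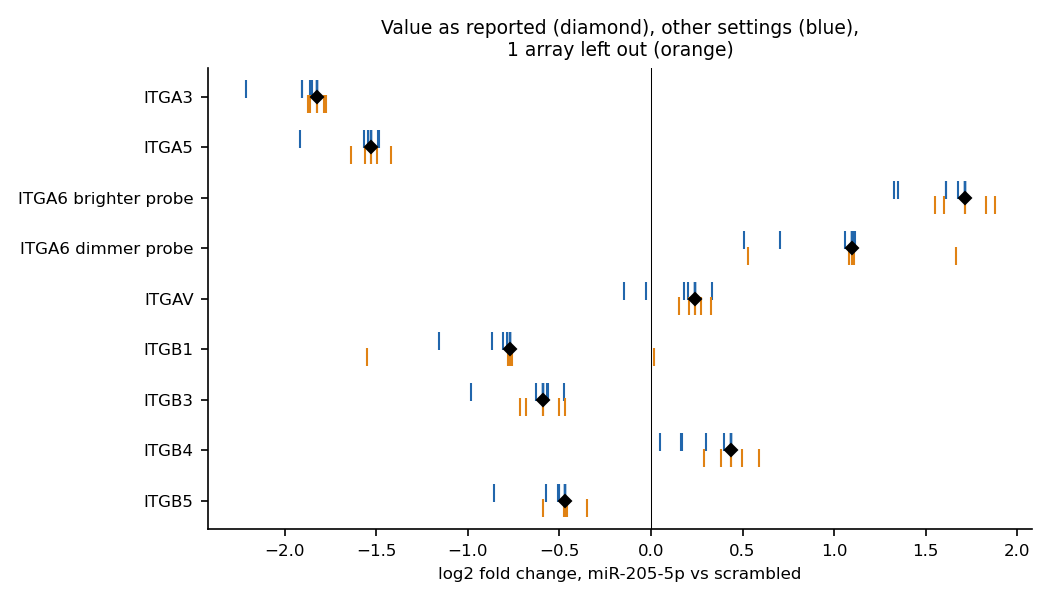
Log2 fold change with hsa-miR-205-5p against the scrambled control (horizontal axis) of the 9 tested integrin probes under each way of processing. The diamond is the value reported here, blue marks are other settings and orange marks leave out 1 array. ITGA3 ran from -2.21 to -1.77, ITGA5 from -1.92 to -1.42 and the brighter ITGA6 probe from 1.32 to 1.88, while ITGAV (-0.15 to 0.33) and ITGB1 (-1.55 to 0.016) crossed 0.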

How the data were processed

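The 6 one-colour arrays carried RNA of MDA-MB-231 cells, 2 per group, with groups from the sample labels. The authors deposited the output of Agilent Feature Extraction 11.0 (version per the labels), in which the processed signal is a linear intensity after background subtraction, not normalized between arrays, with flags for outlier, saturated and well above background spots. The authors also deposited log2 values of the same arrays, whose sorted columns were identical. These were used as an alternative only.

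Control and outlier spots (245 to 463 outliers per array) were left out, spots of a probe were averaged, log2 was taken and the 75th percentile (35.1 to 58.0) was subtracted. The filter kept 18468 probes, of which 83.3% took their symbol from the GRCh38.p14 gene table of RefSeq. The build of the array design differs, so it gave names only. limma 3.58.1 in R 4.3.3, with data.table (1.17.8), fitted all 6 arrays without covariates (3 residual and 2.47 prior degrees of freedom) and was tested on simulated data. Plots used matplotlib 3.10.9.

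The members and gene lists were chosen with earlier results of these data known, so no list is tested as such. All members are named, with in each partner list the 2 largest rises and falls among called genes that all 4 arrays compared showed well above background, and the 5 genes most like ITGA3. The partners ITGA1, LAMA3, LAMA4, LAMB3, CD151, ILK, TNS2, TLN1 and PTK2 and the cell markers are named outside this rule, chosen after their values were seen. The paper's methods name a p-value under 0.05, a 2-fold limit and a t-test. Alternatives were normexp (offset 50, on the median signal, since no mean signal is in the scanner output), quantile normalization, median scaling, the percentile over probes above background on all arrays, the authors' log2 values, other filters, only the 4 arrays compared, a replicate block, intensity trend with robust spread, each array left out, unadjusted p, the methods' t-test, no fold limit, and the mean over a gene's probes. A slide block could not be fitted, since there was 1 slide. The result of 1 further gene is not reported here.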

Additional observations from a re-analysis of the deposited data

How the results depend on the processing

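Over 540 combinations of an integrin value and an alternative, 509 kept their direction and their side of the threshold, 12 lost the call, 15 gained one and 4 changed sign. Part of this tally was fixed in advance. The log2 fold change could not move where only the model, the filter, the threshold or an array outside the comparison changed. Unadjusted p and no fold limit could keep or add a call but not end one. The sign changes were ITGAV with hsa-miR-205-5p against the control under normexp (-0.026) and median scaling (-0.15), ITGB1 with hsa-miR-205-5p without scrambled control replicate 2 (0.016, against -1.55 without replicate 1), and ITGB1 with hsa-miR-214-3p without scrambled control replicate 1 (-0.24, against 1.33 without replicate 2). The calls of ITGA3 and ITGA5 between both precursors held in all 20 alternatives.

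With the methods' t-test and adjustment, hsa-miR-205-5p against the control had 0 integrin probes lower and 0 higher and 0 partner genes called, hsa-miR-214-3p had 0 partner genes called, and 0 integrin probes were higher between both precursors. With unadjusted p, 2 integrin probes were higher with hsa-miR-205-5p and 7 partner genes were called with hsa-miR-214-3p. Over all tested probes, unadjusted p gave 715 lower and 496 higher calls with hsa-miR-214-3p. With no fold limit, 2 integrin probes were higher between both precursors and 22 partner genes were called with hsa-miR-205-5p. Over all tested probes, 2042 were then lower and 1529 higher with hsa-miR-205-5p. With no filter 1 partner gene was called with hsa-miR-205-5p and 0 with hsa-miR-214-3p, and with only the 4 arrays compared 6 and 0. Over all probes tested with hsa-miR-205-5p, lower and higher calls were 305 and 173 with no filter. They were 597 and 261 with only the 4 arrays, and hsa-miR-214-3p had 0 calls of any probe in both settings. For hsa-miR-214-3p, partner calls were 1 under median scaling, 1 by the mean of a gene's probes and 4 with only probes above background on all arrays. Leaving out 1 array gave, for hsa-miR-205-5p against the control, 0 to 3 integrin probes lower, 0 to 2 higher and 0 to 17 partner genes. For hsa-miR-214-3p it gave 0 to 2 integrin probes higher and 0 to 7 partner genes, and between both precursors 0 to 1 integrin probes higher. Calls over all tested probes moved as well when 1 array was left out. The cause of these moves was not tested.

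Samples with the same replicate number showed little shared deviation (correlations of replicate differences of 0.109, 0.008 and -0.05 over 18468 probes). This cannot tell whether such samples were prepared together, which the labels do not say. With the replicate number as a block, ITGA3, ITGA5 and ITGA6 kept their calls with hsa-miR-205-5p (adjusted p = 0.0255, 0.0259 and 0.0267 from limma), and partner calls with hsa-miR-214-3p went from 2 to 0. Median scaling moved the median of all tested probes by -0.39 with hsa-miR-205-5p, -0.17 with hsa-miR-214-3p and -0.22 between both precursors. It raised the share of lower calls among all calls from 66.0% to 91.3%, from 63.0% to 84.7% and from 58.0% to 76.3% in these comparisons, and normexp raised it to 85.0%, 84.4% and 65.3%. Under normexp calls of both directions were fewer: with hsa-miR-205-5p lower calls went from 1486 to 842 and higher calls from 764 to 149. Signal near background limits what can be read for ITGA2 and ITGB8.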
